A study of Mus musculus with 8 samples.

Results

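The 10 genes described here belong to the retinoic acid pathway. They are Rdh10, Aldh1a1, Aldh1a2 and Aldh1a3, which make retinoic acid, Cyp26a1 and Cyp26b1, which break it down, its receptors Rara, Rarb and Rarg, and Stra8, a gene that it switches on. They were matched by gene symbol, and each of the 10 was found among the 23235 symbols listed for every library. The study compared spermatocytes with and without CNOT4, a regulatory subunit of the CCR4-NOT complex, which shortens the poly(A) tails of mRNAs. Male C57BL/6 mice were used, and germ cells were isolated by flow cytometry, from 6-week-old males where the methods give an age. RNA-seq libraries were made from cells in leptotene and zygotene (LZ) and from cells in pachytene and diplotene (PD), with 2 biological replicates in each of the groups WT LZ, Cnot4-null LZ, WT PD and Cnot4-null PD. The Cnot4-null cells came from Cnot4 fl/fl;Stra8-Cre males, in which exon 2 of Cnot4 is removed by a Cre recombinase that the promoter of Stra8 drives in germ cells before meiosis. Whether the WT males carried the floxed allele or the Cre is not given in the sources used here.

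Retinoic acid is made from retinol in successive oxidations. Retinol dehydrogenases such as RDH10 form retinaldehyde, and the retinaldehyde dehydrogenases ALDH1A1, ALDH1A2 and ALDH1A3 turn it into retinoic acid, which enzymes of the CYP26 family inactivate. Retinoic acid binds the nuclear receptors RARA, RARB and RARG, which act on genes together with retinoid X receptors. In the testis it comes in pulses along the seminiferous tubule and drives spermatogonia to differentiate and to enter meiosis, for which Stra8 is needed. Sertoli cells and germ cells both take part in its synthesis, with Aldh1a2 known from germ cells, and Aldh1a1 from Sertoli and Leydig cells.

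Values are FPKM, fragment counts scaled to transcript length and library size, which can be set side by side between genes. Cnot4 itself was listed at 36.0 and 34.9 FPKM (WT LZ), 43.2 and 34.6 (Cnot4-null LZ), 76.6 and 73.1 (WT PD), and 65.9 and 53.5 (Cnot4-null PD). A single value per gene cannot show the loss of exon 2, so these values do not test the genotype labels. The step between low FPKM values was used to estimate how many fragments 1 FPKM stands for in each library relative to WT LZ 1. This was 1.06 for WT LZ 2, 0.935 and 1.06 (Cnot4-null LZ), 1.21 and 1.33 (WT PD), and 1.00 and 0.823 (Cnot4-null PD).

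The labelled stages were checked against marker genes. All 10 pachytene and diplotene markers were higher in WT PD than in WT LZ, and their summed FPKM was 12691 and 11801 (WT PD), 5769 and 2036 (Cnot4-null PD), and 97.2 to 351 in the LZ libraries. The most abundant of them was Ldhc, the lactate dehydrogenase of meiotic cells, at 10595 and 9725 FPKM (WT PD) and 4585 and 1474 (Cnot4-null PD). Markers of other cell types stood high in Cnot4-null PD. The 10 Leydig cell markers summed to 37.1 and 18.0 FPKM (WT LZ), 13.1 and 20.5 (Cnot4-null LZ), 133 and 8.52 (WT PD), and 10953 and 24242 (Cnot4-null PD). Insl3, a hormone gene that defines Leydig cells, led them with 104 and 4.90 FPKM (WT PD) and 9669 and 21608 (Cnot4-null PD), and all 10 markers were called higher there than in WT PD. Over all genes 41.6% were called higher and 11.5% lower in that comparison, and the marker counts below are to be read beside these. Of the 10, 4 (Hsd3b1, Hsd3b6, Hsd17b3 and Lhcgr) were above 1 FPKM in Cnot4-null PD alone and so entered the test through that group. The 7 peritubular myoid markers summed to 9.28 and 6.42 FPKM (WT PD) and to 187 and 614 (Cnot4-null PD), where Myl9 was the most abundant, with all 7 called higher, 3 of which (Myh11, Des and Cnn1) entered the test in the same way.

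Of the Sertoli cell markers 12 were tested, and 7 were called higher and 1 lower in Cnot4-null PD than in WT PD, with a median of 1.48 beside 0.66 for all genes. The 14 that were found summed to 278 and 241 FPKM (WT LZ), 145 and 108 (Cnot4-null LZ), 26.3 and 70.2 (WT PD), and 174 and 299 (Cnot4-null PD). Clu had their highest single value, 196 FPKM in Cnot4-null PD 2, but Ctsl was above it in all 4 LZ libraries, and the defining markers Amh and Fshr were at 0 in 7 of 8 libraries each and below 0.2 FPKM in the other. Of 12 spermatogonial markers, 11 were called higher in Cnot4-null PD than in WT PD, and their sum was 532 to 772 FPKM in the LZ libraries, 70.2 and 84.7 (WT PD) and 395 and 515 (Cnot4-null PD). Uchl1 led the list except in WT PD, where Id4 did, at 49.3 and 70.9 FPKM, and Id4 was the marker not called. All 8 spermatid markers were also called higher, with sums of 1838 and 1530 FPKM (WT LZ), 4043 and 714 (Cnot4-null LZ), 424 and 264 (WT PD) and 15868 and 7203 (Cnot4-null PD). The protamine gene Prm1 led them except in Cnot4-null LZ 2 and WT PD 2, where Prm2 was above it. In bulk libraries fewer cells of a type and less RNA per cell cannot be told apart. The part that cells of these types played in the results below was not tested.

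**Figure D1:**
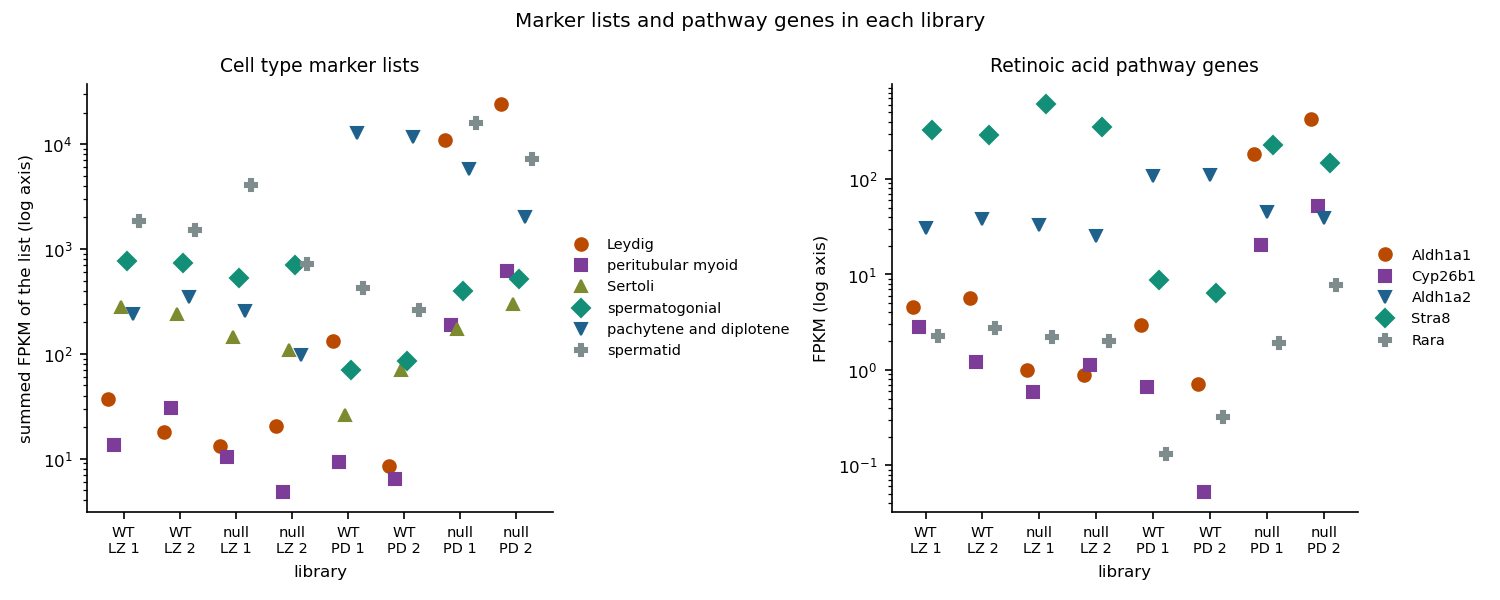
Summed FPKM of 6 marker lists (left) and FPKM of 5 pathway genes (right) in each of the 8 libraries, on log axes; each point is 1 library. In the Cnot4-null PD libraries the Leydig list reaches 10953 and 24242, and Aldh1a1 and Cyp26b1 are highest in the same libraries.

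The pathway genes were tested in 1 model, together with every gene that passed 1 FPKM in some library, on log2(FPKM + 1). A gene is said to be called when its adjusted p is under 0.05 (limma, Benjamini-Hochberg over the 15899 genes tested). Of the 10 members 8 entered the test. Cyp26a1 and Rarb stayed at or below 1 FPKM in every library, and Aldh1a3 entered only through Cnot4-null PD, where it was above 1 FPKM, so counts over the 8 do not stand for all 10 and are given as a description.

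At PD the question was which genes differ without CNOT4. Of the 8 members tested, 7 were called higher (Rdh10 and Rarg with the opposite sign under quantile normalization) and 1 lower in Cnot4-null PD than in WT PD, beside 53.1% of all genes called, 41.6% higher and 11.5% lower. Differences there lean upward across the whole transcriptome: the median log2 fold change of all genes was 0.66, and it became -0.21 when the libraries were rescaled to the same median and -0.10 under quantile normalization. The split of calls over all genes turned with it, from 6619 higher and 1830 lower to 3724 and 6376 after rescaling and to 2835 and 4078 under quantile normalization. Changes at PD are therefore also given relative to the median of all genes. At LZ none of the 8 was called between the genotypes (limma), beside 0.0943% of all genes, and 1 of the 8, Aldh1a1, had an unadjusted p under 0.05.

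From LZ to PD in WT, 1 member was called higher and 4 lower, beside 57.8% of all genes called, 21.6% higher and 36.2% lower. All genes were split into 3436 higher and 5754 lower, and into 5170 and 4274 after rescaling. Over the same interval in Cnot4-null, 3 were called higher and 2 lower, beside 46.0% of all genes, 27.8% higher and 18.2% lower, a split of 4423 and 2893 that became 3332 and 5180 after rescaling and 2974 and 4986 under quantile normalization. The test of whether the genotype difference depends on stage called 6 members with a higher and 1 with a lower difference at PD than at LZ, beside 30.0% of all genes, 26.0% higher and 3.97% lower. That split of 4139 and 631 became 2177 and 5129 after rescaling and 1548 and 1966 under quantile normalization. Each group enters several of these comparisons, so they share libraries.

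**Figure D2:**
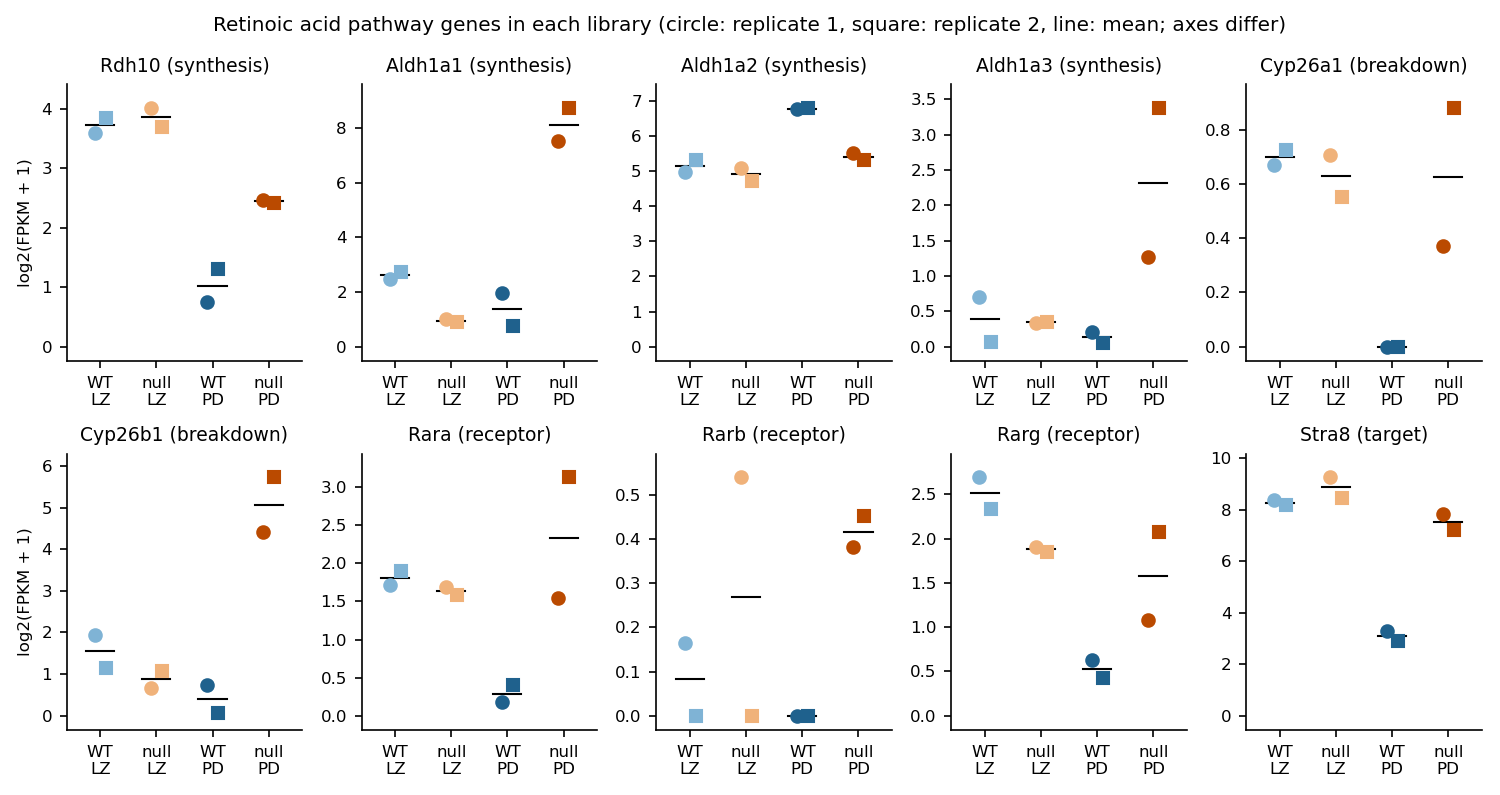
log2(FPKM + 1) of the 10 genes in the 4 groups, with a circle for replicate 1, a square for replicate 2 and a line at the group mean; the scale differs between panels. Aldh1a1 and Cyp26b1 are highest in Cnot4-null PD, Aldh1a2 (WT PD), and Stra8 is lowest in WT PD.

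Retinol oxidation was followed with Rdh10, the retinol dehydrogenase on which embryonic retinoic acid synthesis depends. It was at 11 and 13.4 FPKM (WT LZ), 15 and 12.0 (Cnot4-null LZ), 0.674 and 1.46 (WT PD), and 4.53 and 4.34 (Cnot4-null PD). The LZ groups overlapped, and both PD groups lay below them without overlapping each other. Rdh10 fell by 2.70 on the log2 scale from LZ to PD in WT (SE 0.28, adjusted p = 0.00017 by limma) and fell by 1.41 in Cnot4-null (SE 0.28, adjusted p = 0.00619 by limma), the latter by 2.14 under quantile normalization. Between the genotypes at PD it was higher in Cnot4-null by 1.42 (SE 0.28, adjusted p = 0.00556 by limma), or by 0.76 relative to the median of all genes, but under quantile normalization the sign turned, with a log2 value of -0.03. Neither that scaling nor rescaling to the same median, which gave 0.48, called it, with adjusted p = 0.95 and 0.189 (limma, range over its alternatives 0.00485 to 0.95), and it was no longer called without WT PD replicate 1, at 1.14 (adjusted p = 0.0534).

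Aldh1a1 showed the largest genotype difference of the 8 members tested. Its values were 4.60 and 5.72 FPKM (WT LZ), 1.00 and 0.886 (Cnot4-null LZ), 2.94 and 0.706 (WT PD), and 183 and 421 (Cnot4-null PD). The Cnot4-null PD libraries stood far above the other 6 libraries, which lay between 0.706 and 5.72 FPKM. The gene lies at chr19:20676451-20717952 on the plus strand (mm9). On the log2 scale it was higher in Cnot4-null PD than in WT PD by 6.75 (SE 0.50, adjusted p = 0.000179 by limma), or by 6.08 relative to the median of all genes. It was called under every alternative run, with adjusted p from 0.000112 to 0.0132. From LZ to PD in Cnot4-null it rose by 7.16 (SE 0.50, adjusted p = 0.000315 by limma).

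At LZ the order of the genotypes was the opposite. Both WT LZ libraries were above both Cnot4-null LZ libraries, with a log2 difference of -1.66 (SE 0.50) that was not called (adjusted p = 0.621 by limma). The genotype difference in Aldh1a1 depended on stage, by 8.40 on the log2 scale (SE 0.70, adjusted p = 0.00103 by limma). In WT the change from LZ to PD was -1.24 (SE 0.50, adjusted p = 0.0663 by limma) and was called only without WT PD replicate 1, at -1.85 (adjusted p = 0.0325, range over the alternatives 0.0325 to 0.529), while it was -0.64 without WT PD replicate 2 and -0.50 under quantile normalization.

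The replicates of Aldh1a1 at PD stood in the same order as the summed Leydig markers. Cnot4-null PD 2 was above Cnot4-null PD 1 by 2.31 times for Aldh1a1 and by 2.21 times for the summed Leydig list, and WT PD 1 was above WT PD 2 by 4.17 times for Aldh1a1 and by 15.6 times for that list. At LZ the group means of WT were above those of Cnot4-null by 5.47 times for Aldh1a1 and by 2.05 times for the summed Sertoli list, in which Clu was at 55.9 and 47.4 FPKM (WT LZ) and at 4.56 and 6.88 (Cnot4-null LZ). Of the 12 Sertoli markers tested, Ctsl alone leaned the other way, at 101 and 75.9 FPKM (WT LZ) and 123 and 85.5 (Cnot4-null LZ). The median log2 difference of the 12 at LZ was -0.60, beside 0.0 for all genes, and none of the 12 was called. At PD the Sertoli sum of WT PD 1 was 0.374 times that of WT PD 2, opposite to Aldh1a1. That of Cnot4-null PD 2 was 1.71 times that of Cnot4-null PD 1. Whether Aldh1a1 came from Leydig or Sertoli cells was not tested. The libraries were made from cells sorted by flow cytometry. For the sorted germ cells the paper reports that SYCP3 and pH2AX immunofluorescence bore out identity and purity. Aldh1a7, its paralog on the same chromosome with 49490 bases between them, was listed at 0 in 4 libraries, at 0.793 FPKM in WT LZ 2, at 0.138 in WT PD 1, and at 3.34 and 8.35 (Cnot4-null PD). The authors kept uniquely mapped reads, and how reads of the paralogs were divided was not tested.

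Aldh1a2 went the other way. Its level was 30.4 and 38.5 FPKM (WT LZ), 33.1 and 25.4 (Cnot4-null LZ), 107 and 109.6 (WT PD), and 44.7 and 38.9 (Cnot4-null PD). The LZ groups overlapped, the WT PD duplicates were close to each other, and both Cnot4-null PD libraries lay between the LZ and the WT PD values. It rose by 1.64 on the log2 scale from LZ to PD in WT (SE 0.21, adjusted p = 0.00049 by limma), while in Cnot4-null the change was 0.51 (SE 0.21, adjusted p = 0.0896 by limma), and -0.07 after rescaling. At PD it was lower in Cnot4-null, with a log2 value of -1.36 (SE 0.21, adjusted p = 0.00228 by limma) and of -2.02 relative to the median of all genes. With libraries rescaled to the same median it was -2.77 at PD and 2.52 from LZ to PD in WT. At PD it was called under every alternative run, with adjusted p from 0.000362 to 0.0263.

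The difference in Aldh1a2 depended on stage by -1.13 on the log2 scale (SE 0.30, adjusted p = 0.0315 by limma), and by -2.58 after rescaling. This call was lost without WT LZ replicate 1, Cnot4-null LZ replicate 1, WT PD replicate 1, WT PD replicate 2 or Cnot4-null PD replicate 2, with log2 values from -1.14 to -0.94 and adjusted p from 0.0556 to 0.116 (range over the alternatives 0.00301 to 0.116). Pachytene and diplotene markers were also lower in Cnot4-null PD, 4 of 10 of them called beside 11.5% of all genes, with a median log2 value of -1.30 where that of all genes was 0.66, and their part in the Aldh1a2 result was not tested. Aldh1a2 lies at chr9:71063596-71144050 on the plus strand (mm9).

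Aldh1a3 was the lowest of the 3 retinaldehyde dehydrogenases in every library. It was listed at 0.633 and 0.0460 FPKM (WT LZ), 0.260 and 0.276 (Cnot4-null LZ), 0.160 and 0.0367 (WT PD), and 1.41 and 9.34 (Cnot4-null PD). Its low values were whole multiples of 1 step to within 0.001 of a step. If that step is 1 fragment, the values stand for 13 and 1 fragments in WT LZ, 5 and 6 (Cnot4-null LZ), 4 and 1 (WT PD), and 29 and 158 (Cnot4-null PD). Aldh1a3 entered the test through Cnot4-null PD alone, so the filter set the direction of both changes given next. Cnot4-null PD was above WT PD by 2.19 on the log2 scale (SE 0.62, adjusted p = 0.0224 by limma), or by 1.52 relative to the median of all genes, by 4.32 with a pseudocount of 0.1 and by 1.25 under quantile normalization. With no filter the adjusted p of this difference was 0.0357 (limma). The call was lost under quantile normalization, with only the PD libraries in the model, and without either WT PD replicate (adjusted p = 0.159, 0.0967, 0.0924 and 0.109), and without Cnot4-null PD replicate 2 the log2 value was 1.13 (adjusted p = 0.0305, range over the alternatives 0.00143 to 0.159). The rise from LZ to PD in Cnot4-null, 1.98 (SE 0.62, adjusted p = 0.0359 by limma), was 0.92 without Cnot4-null PD replicate 2 and 3.03 without Cnot4-null PD replicate 1, and it was not called without any 1 of the other 6 libraries (adjusted p from 0.0617 to 0.141). It was also not called with no filter, with only the Cnot4-null libraries, or under either scaling between libraries (adjusted p = 0.0545, 0.124, 0.0501 and 0.162, range over the alternatives 0.00273 to 0.162), and the rise was 3.36 with a pseudocount of 0.1 and 1.20 under quantile normalization. The dependence on stage, 2.23 (SE 0.88, adjusted p = 0.0942 by limma), was called without Cnot4-null PD replicate 1, at 3.28. Without Cnot4-null PD replicate 2 it was smaller, with genotype differences of 1.13 at PD and -0.04 at LZ.

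Set against each other, the 3 genes changed places only in Cnot4-null PD among the 4 groups. Aldh1a2 made up 85.3% and 87.0% of the summed FPKM of Aldh1a1, Aldh1a2 and Aldh1a3 (WT LZ), 96.3% and 95.6% (Cnot4-null LZ), 97.2% and 99.3% (WT PD), and 19.5% and 8.28% (Cnot4-null PD). Aldh1a1 made up 12.9% in both WT LZ libraries, 2.91% and 3.34% (Cnot4-null LZ), 2.66% and 0.64% (WT PD), and 79.8% and 89.7% (Cnot4-null PD). The sum itself was 35.7 and 44.3 FPKM (WT LZ), 34.4 and 26.5 (Cnot4-null LZ), 110.5 and 110.3 (WT PD), and 229 and 469.6 (Cnot4-null PD). The ratio of Aldh1a1 to Aldh1a2 FPKM thus went from 0.0274 and 0.00644 (WT PD) to 4.08 and 10.8 (Cnot4-null PD).

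The difference in log2(FPKM + 1) between Aldh1a1 and Aldh1a2 within a library was -4.78 and -6.02 (WT PD) and 2.01 and 3.40 (Cnot4-null PD). The group means differed by 8.10, and the groups did not overlap (exact permutation test of 2 against 2 libraries, two-sided p = 0.33, the smallest this design allows). At LZ the same difference was -2.49 and -2.56 in WT and -4.09 and -3.81 in Cnot4-null, a change of the opposite sign, -1.43. With both stages and genotype permuted within stage, the exact permutation p was 0.33. That test adds the PD and LZ differences, which had opposite signs for this pair and the next. Its smallest possible p is lower than that of 2 against 2 libraries. Between Aldh1a1 and Aldh1a3 the difference was 1.76 and 0.72 (WT PD) and 6.25 and 5.35 (Cnot4-null PD), and the group means differed by 4.56 (exact permutation p = 0.33, and 0.33 within stage). With a pseudocount of 0.1 this was 3.15. Aldh1a3 was so low in WT PD that the pseudocount bears on the size, and the ratio of the mean FPKM of Cnot4-null PD to that of WT PD was 166 for Aldh1a1 and 54.6 for Aldh1a3. At LZ this difference was 1.78 and 2.68 in WT and 0.67 and 0.56 in Cnot4-null.

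**Figure D3:**
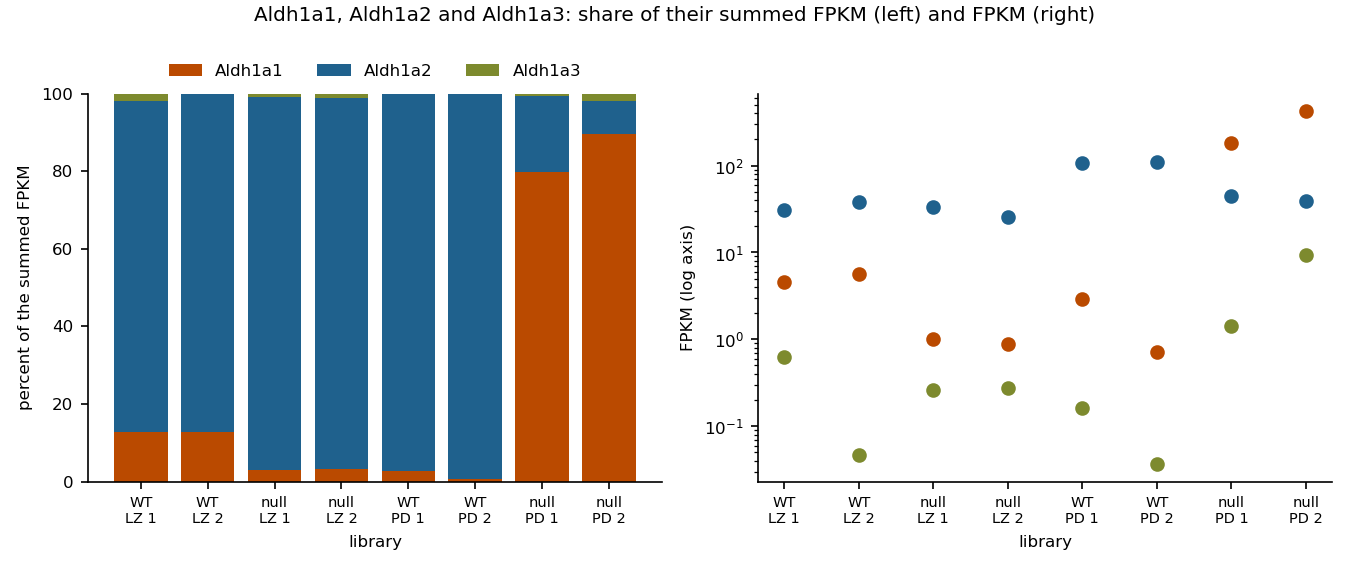
Left, percent of the summed FPKM of Aldh1a1, Aldh1a2 and Aldh1a3 that each gene makes up in each of the 8 libraries; right, FPKM of the same genes on a log axis, each point 1 library. Aldh1a2 holds the largest share in the LZ and WT PD libraries, and Aldh1a1 holds 79.8% and 89.7% in the Cnot4-null PD libraries.

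Breakdown of retinoic acid was represented by Cyp26b1 above all, the CYP26 enzyme that protects fetal germ cells from entering meiosis. Cyp26b1 was at 2.84 and 1.21 FPKM (WT LZ), 0.592 and 1.11 (Cnot4-null LZ), 0.655 and 0.0522 (WT PD), and 20.2 and 51.9 (Cnot4-null PD). Only the Cnot4-null PD libraries were above 3 FPKM. It was higher there than in WT PD by 4.66 on the log2 scale (SE 0.51, adjusted p = 0.000524 by limma), or by 4.0 relative to the median of all genes, and the call held under every alternative run, with adjusted p from 0.000585 to 0.0151. In WT the change from LZ to PD was -1.14 (adjusted p = 0.0926 by limma), called with a pseudocount of 0.1, at -2.53 (adjusted p = 0.0397, range over the alternatives 0.0397 to 0.432). It was -0.65 under quantile normalization and -0.74 without WT LZ replicate 1. The genotype difference depended on stage by 5.33 (SE 0.72, adjusted p = 0.0031 by limma), and at LZ it was -0.67 (SE 0.51, adjusted p = 0.945 by limma). The LZ value was -0.27 without WT LZ replicate 1 and -1.07 without WT LZ replicate 2. As for Aldh1a1, WT PD 1 was above WT PD 2, by 12.6 times, and Cnot4-null PD 2 above Cnot4-null PD 1, by 2.57 times, in the order of the Leydig and myoid sums. Synthesis by Aldh1a1 and breakdown by Cyp26b1 were thus both high in the same libraries at the RNA level.

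Cyp26a1, the other breakdown enzyme, was listed at 0.592 and 0.653 FPKM (WT LZ), 0.633 and 0.467 (Cnot4-null LZ), 0 in both WT PD libraries, and 0.295 and 0.839 (Cnot4-null PD). On the same reading of the steps as for Aldh1a3, these values stand for 6 and 7, 6 and 5, 0 and 0, and 3 and 7 fragments. The gene did not pass the filter. With no filter its log2 difference at PD was 0.63 (SE 0.19, adjusted p = 0.0367 by limma), or 0.25 relative to the median of all genes in that fit, and its change from LZ to PD in WT was -0.70 (SE 0.19, adjusted p = 0.0217 by limma), both against libraries listed at 0 and resting on at most 7 fragments a library. It is one of the classical genes that retinoic acid induces through a response element in its own promoter. A response element is a direct repeat of 6-base sites, which were searched on both strands as AGGTCA or AGTTCA, and as GGGTCA or GGTTCA, with spacers of 1, 2 or 5 bases, in RefSeq promoter windows (GRCm38.p6) of 250 bases before and 50 after each start. With 8 of the 10 members matched to windows, the promoters of Cyp26a1 and Rarb held the repeat with spacer 5. They are shown because retinoic acid receptors are known to bind repeats of this kind, with the matched letters in capitals.
Cyp26a1: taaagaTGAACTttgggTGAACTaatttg
Rarb: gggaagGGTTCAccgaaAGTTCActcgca
The first lies at chr19:37772260-37772288 on the plus strand, 32 to 16 bases before the start, with the repeat on the opposite strand. The second lies at chr14:17408021-17408049 on the minus strand, 53 to 37 bases before the start (both mm9, the assembly NCBIM37). Of all 32851 windows, 0.0974% held the repeat with spacer 5 and 0.588% held 1 of the 3 repeats. No match was found in the windows of Aldh1a1, Aldh1a2, Cyp26b1, Rara, Rarg and Stra8, which says only that these letters are not in those windows.

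Among the receptors, Rara, through which retinoic acid acts in Sertoli cells and spermatogonia, was at 2.29 and 2.75 FPKM (WT LZ), 2.22 and 2.01 (Cnot4-null LZ), 0.131 and 0.321 (WT PD), and 1.91 and 7.76 (Cnot4-null PD). The WT PD libraries were the lowest of the 8, and the Cnot4-null PD libraries differed by 4.06 times. It was higher in Cnot4-null PD than in WT PD by 2.05 on the log2 scale (SE 0.49, adjusted p = 0.0115 by limma), or by 1.38 relative to the median of all genes, by 3.67 with a pseudocount of 0.1 and by 0.89 under quantile normalization. The value was 1.25 without Cnot4-null PD replicate 2 (adjusted p = 0.00816), and the call was lost under quantile normalization, with only the PD libraries, and without either WT PD replicate (adjusted p = 0.193, 0.0675, 0.0776 and 0.061, range over the alternatives 0.000894 to 0.193). In WT the change from LZ to PD was -1.52 (SE 0.49, adjusted p = 0.0296 by limma), a call that was lost under quantile normalization and without any 1 of the 6 libraries outside Cnot4-null PD (adjusted p from 0.0587 to 0.141, range over the alternatives 0.00114 to 0.141). That change was -3.06 with a pseudocount of 0.1 and -1.01 under quantile normalization. In Cnot4-null the change was 0.70 (SE 0.49, adjusted p = 0.269 by limma), and it was called without Cnot4-null PD replicate 1, at 1.49 (adjusted p = 0.00594, range over the alternatives 0.00594 to 0.992), while without Cnot4-null PD replicate 2 its sign turned, to -0.10.

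Rarg, the receptor of spermatogonia and early germ cells, was also lowest in WT PD. It stood at 5.46 and 4.04 FPKM (WT LZ), 2.74 and 2.60 (Cnot4-null LZ), 0.541 and 0.347 (WT PD), and 1.12 and 3.20 (Cnot4-null PD). In WT it fell by 1.99 on the log2 scale from LZ to PD (SE 0.37, adjusted p = 0.00255 by limma), with -3.16 for a pseudocount of 0.1 and -1.28 for quantile normalization, and in Cnot4-null the change was -0.30 (adjusted p = 0.523 by limma). That change was called under quantile normalization, at -1.09, and without Cnot4-null PD replicate 2, at -0.80 (adjusted p = 0.0264 and 0.0423, range over the alternatives 0.0264 to 0.69), while without Cnot4-null PD replicate 1 its sign turned, to 0.19. At PD the value in Cnot4-null was higher by 1.05 (SE 0.37, adjusted p = 0.0451 by limma) but by 0.39 relative to the median of all genes, and under quantile normalization the sign turned, to -0.36 (adjusted p = 0.395). It was 1.90 with a pseudocount of 0.1 and 0.38 after rescaling. This call lay at the threshold. It was lost with no filter, after rescaling, with only the PD libraries, with a replicate block, with WT LZ replicate 1, WT LZ replicate 2, Cnot4-null LZ replicate 1, Cnot4-null LZ replicate 2, WT PD replicate 1 or WT PD replicate 2 left out, and without Cnot4-null PD replicate 2, which gave 0.55 (adjusted p = 0.112, range over the alternatives 0.00559 to 0.395). Rara and Rarg changed order between the groups, with Rarg above Rara in the LZ and WT PD libraries and a ratio of Rara to Rarg of 1.71 and 2.43 (Cnot4-null PD).

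Rarb was barely detected. It was listed at 0.121 and 0 FPKM (WT LZ), 0.453 and 0 (Cnot4-null LZ), 0 in both WT PD libraries, and 0.302 and 0.368 (Cnot4-null PD), which would be 2 and 0, 7 and 0, 0 and 0, and 5 and 5 fragments. The replicates at LZ differed as much as the groups did. Like Cyp26a1 it carries the repeat printed above, and these were the members with the lowest maximum over the 8 libraries.

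**Figure D4:**
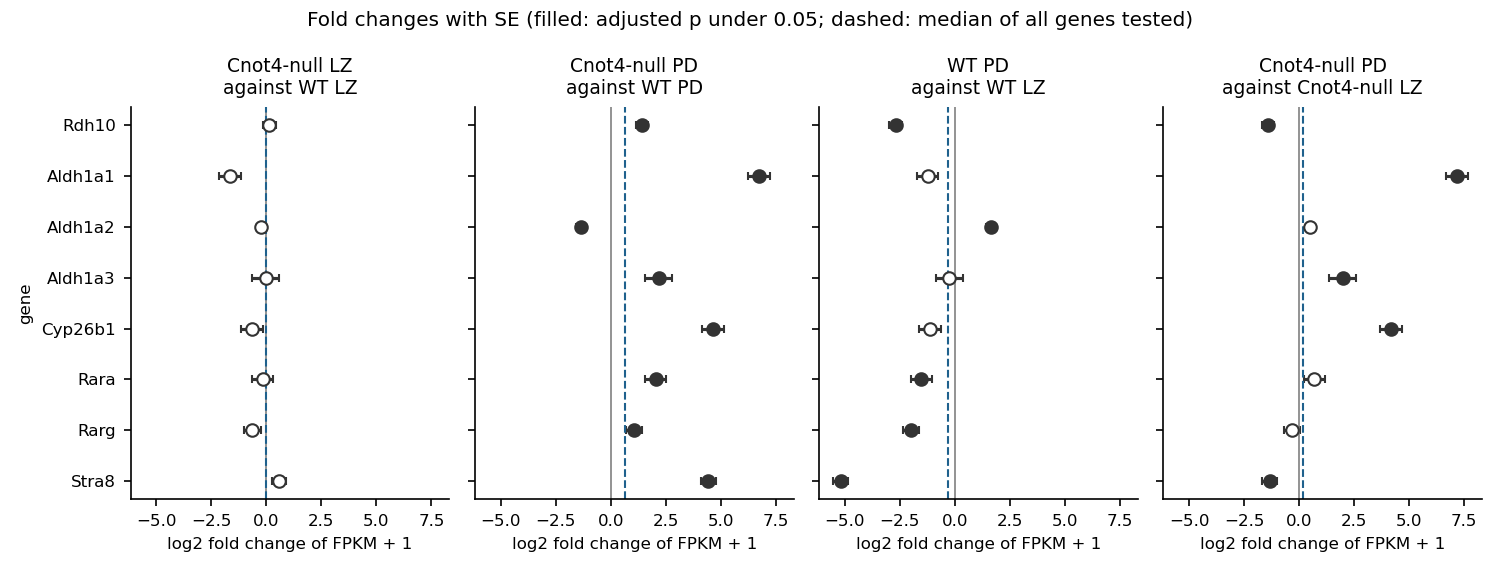
log2 fold change of FPKM + 1 (x axis) with its SE for the 8 genes tested, in 4 comparisons with 2 libraries a group; filled points have an adjusted p under 0.05 (limma) and the dashed line is the median of all genes tested. At PD, Aldh1a2 lies below 0 and the other 7 above it, though Rdh10 and Rarg fell on the other side of 0 under quantile normalization.

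Stra8, which germ cells express when retinoic acid commits them to meiosis, was the most abundant of the 10 genes in the LZ libraries. Its values were 330 and 293 FPKM (WT LZ), 614 and 355 (Cnot4-null LZ), 8.70 and 6.47 (WT PD), and 228 and 149 (Cnot4-null PD). The 4 LZ libraries were the highest, both WT PD libraries were the lowest, and the Cnot4-null PD libraries lay between them. In WT it fell by 5.20 on the log2 scale from LZ to PD (SE 0.33, adjusted p = 2.82e-05 by limma). In Cnot4-null it fell by 1.34 (SE 0.33, adjusted p = 0.0137 by limma), a call that was lost with only the Cnot4-null libraries, without Cnot4-null LZ replicate 1 and without Cnot4-null PD replicate 2 (adjusted p = 0.0746, 0.0883 and 0.0766, range over the alternatives 0.00168 to 0.0883).

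At PD Stra8 was higher in Cnot4-null by 4.44 on the log2 scale (SE 0.33, adjusted p = 0.000175 by limma), or by 3.78 relative to the median of all genes, and it was called under every alternative run. At LZ the difference was 0.58 (SE 0.33, adjusted p = 0.87 by limma), or 0.19 without Cnot4-null LZ replicate 1 and 0.98 without Cnot4-null LZ replicate 2, and the dependence on stage was 3.86 (SE 0.46, adjusted p = 0.00225 by limma), or 2.46 after rescaling. The replicates of Cnot4-null PD were in the opposite order from those of Aldh1a1, Cyp26b1 and the Leydig sum, with Cnot4-null PD 2 at 0.654 times Cnot4-null PD 1. Spermatogonial markers were high in the same group. Their sum was in the opposite order from Stra8, with Cnot4-null PD 2 at 1.30 times Cnot4-null PD 1. Sohlh2, Id4 and Nanos3 of that list were in the order of Stra8, and its other markers in that of the sum. The part of these markers in the Stra8 result was not tested. Stra8 lies at chr6:34870163-34889342 on the plus strand (mm9), with 82723 bases between it and Cnot4, the targeted gene, at chr6:34972066-35083737 on the minus strand.

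The wider pathway was followed with lists of 71 genes in all, of which 68 were found and 56 tested, the 8 members among them. At PD 35 of the 56 were called higher and 8 lower in Cnot4-null than in WT (limma), or 62.5% and 14.3%, beside 41.6% and 11.5% of all genes, and their median log2 fold change was 1.90 beside 0.66. Of the 35, 6 (Adh1, Adh7, Aldh1a3, Aldh1a7, Rxrg and Tgm2) passed the filter through Cnot4-null PD alone, which set their direction. At LZ their median was -0.02. From LZ to PD in WT 8 were called higher and 26 lower, or 14.3% and 46.4% beside 21.6% and 36.2% of all genes, with a median of -1.04 beside -0.32. In Cnot4-null 15 were called higher and 15 lower, or 26.8% each beside 27.8% and 18.2% of all genes, with a median of 0.14 beside 0.19.

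Retinoid carriers formed the first of these lists. At PD 4 of 9 tested carriers and uptake genes were called higher and 1 lower, near the shares of all genes (41.6% and 11.5%), and their median of 0.27 lay below the 0.66 of all genes. Crabp1, which binds retinoic acid in the cytoplasm, was at 390 and 420 FPKM (WT LZ), 322 and 327 (Cnot4-null LZ), 4.05 and 4.15 (WT PD), and 161 and 135 (Cnot4-null PD), so that WT PD was lowest and Cnot4-null PD next, as for Stra8. The log2 difference at PD was 4.86 (SE 0.17, adjusted p = 4.44e-05 by limma). Rbp4, the plasma carrier of retinol, went from 0.882 and 1.29 FPKM (WT PD) to 25.4 and 48.2 (Cnot4-null PD), below its 122 to 165 FPKM at LZ. Dgat1, which can esterify retinol, was the gene called lower, at 112 and 108 FPKM against 64.1 and 44.5.

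Of the 17 retinol and retinal oxidoreductases tested, 9 were called higher and 4 lower at PD, beside 41.6% and 11.5% of all genes. Dhrs7 was at 0.349 and 0.107 FPKM (WT PD) and at 17.8 and 36.6 (Cnot4-null PD), and Adh5 at 2.31 and 2.12 against 47.9 and 67.8. Adh1, an alcohol dehydrogenase that oxidizes retinol, was listed at 0.453 and 0 FPKM (WT PD) and at 12.6 and 6.52 (Cnot4-null PD). Adh5 was at 98.55 to 110.4 FPKM in the LZ libraries, while Dhrs7 and Adh1 were at most 2.01 FPKM there. The called genes with the largest difference downward were Adh4, Rdh11 and Rdh14, of which Rdh11 was at 128 and 122 FPKM (WT PD) and at 57.2 and 22.2 (Cnot4-null PD), an order of groups like that of Aldh1a2 in that WT PD was highest. Beside Aldh1a1 and Aldh1a3, Aldh1a7 was the other retinal dehydrogenase called higher, by 2.58 (SE 0.43, adjusted p = 0.00294 by limma). Like Aldh1a3, and like Adh1 and Adh7 among the oxidoreductases, it was above 1 FPKM in Cnot4-null PD alone and entered the test through that group.

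Receptors and their partners came next. All 5 receptors tested were called higher in Cnot4-null, beside 41.6% of all genes, Rarg with the opposite sign under quantile normalization, Rxra from 0.126 and 0.0232 FPKM to 5.64 and 7.99, and Rxrb from 2.09 and 2.03 to 8.26 and 8.21. Rxrg was above 1 FPKM in 1 Cnot4-null PD library alone, so its direction was set by the filter. In WT 4 of the 5 were called lower at PD than at LZ, beside 36.2% of all genes. Of the 10 receptor coregulators 5 were called higher at PD in Cnot4-null and none lower, Crebbp and Ep300 among them, a share near that of all genes, and 8 of 10 were called lower from LZ to PD in WT, beside the same 36.2%. Ncor1, which had the highest single value among them, was at 22.7 and 23.8 FPKM (WT PD) and at 30.5 and 33.9 (Cnot4-null PD), and was not called (adjusted p = 0.102 by limma).

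Targets and meiotic entry genes had a median of 2.96 at PD over 11 genes tested, beside 0.66 for all genes. Of the 11, 9 were called higher, Tgm2 among them through Cnot4-null PD alone, and 2 lower, beside 41.6% and 11.5% of all genes. Dmrt1, which holds spermatogonia out of meiosis, was at 174 and 149.6 FPKM (WT LZ), 119.6 and 167 (Cnot4-null LZ), 1.88 and 1.03 (WT PD), and 48.1 and 95.7 (Cnot4-null PD). Sohlh1, a factor of differentiating spermatogonia, was at 1.42 and 0.542 FPKM (WT PD) and at 41.3 and 51.3 (Cnot4-null PD). Kit, Sohlh1, Sohlh2 and Dmrt1 are also in the spermatogonial marker list, Sycp3 in that of leptotene and zygotene, and Dhrs3 in that of oxidoreductases. Sycp3 and Mael were called lower, with Mael at 1278 and 1393 FPKM (WT PD) and at 611 and 374 (Cnot4-null PD).

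Genes of the ALDH family outside retinoid metabolism were set beside Aldh1a1. Of 15 tested, 8 were called higher and 1 lower at PD, beside 41.6% and 11.5% of all genes, and their median was 1.30 beside 0.66. Of the 15, 2 (Aldh1b1 and Aldh3a1) were above 1 FPKM in Cnot4-null PD alone. Aldh2, the mitochondrial enzyme that removes acetaldehyde, was at 3.18 and 2.64 FPKM (WT LZ), 1.08 and 1.32 (Cnot4-null LZ), 0.384 and 0.293 (WT PD), and 24.4 and 62.9 (Cnot4-null PD). Like Aldh1a1 it was lower in both Cnot4-null LZ libraries than in both WT LZ libraries, and Cnot4-null PD 2 was above Cnot4-null PD 1, by 2.58 times. Aldh1l1 and Aldh7a1 were the next by log2 difference at PD, 3.41 and 3.19, and Aldh3b2 was the gene called lower.

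The genes most like Aldh1a1, Aldh1a2 and Stra8 were sought among the 9673 genes with at least 10 FPKM in 1 library, by the root mean square difference of log2(FPKM + 1), with each gene's mean removed, over the 8 libraries. For Aldh1a1 they included Gstm1, Gstm2, Sct and Acsbg1, with differences of 0.54 to 0.64. Gstm1, a glutathione transferase, was at 13.7 and 25.2 FPKM (WT LZ), 5.49 and 3.78 (Cnot4-null LZ), 33.4 and 4.63 (WT PD), and 819 and 1258 (Cnot4-null PD). Its order of libraries at PD was that of Aldh1a1, with WT PD 1 above WT PD 2, which a choice by likeness over the same libraries favours.

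Nop10, Rnf181, Wdr7, Fam96a and 1810012P15Rik were the most like Aldh1a2, with smaller differences of 0.12 to 0.14. Nop10, a subunit of box H/ACA ribonucleoproteins, was at 277 and 373 FPKM (WT LZ), 291 and 268 (Cnot4-null LZ), 947 and 1156 (WT PD), and 489 and 394 (Cnot4-null PD). For Stra8 they were Taldo1, Hspe1, Nmt2, Prdx4 and Ncl, with differences of 0.30 to 0.33. Taldo1, an enzyme of the pentose phosphate pathway, was at 138 and 126 FPKM (WT LZ), 139.7 and 130.1 (Cnot4-null LZ), 3.23 and 1.86 (WT PD), and 68.9 and 62.2 (Cnot4-null PD). None of the genes named here as alike is in the pathway or marker lists.

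**Figure D5:**
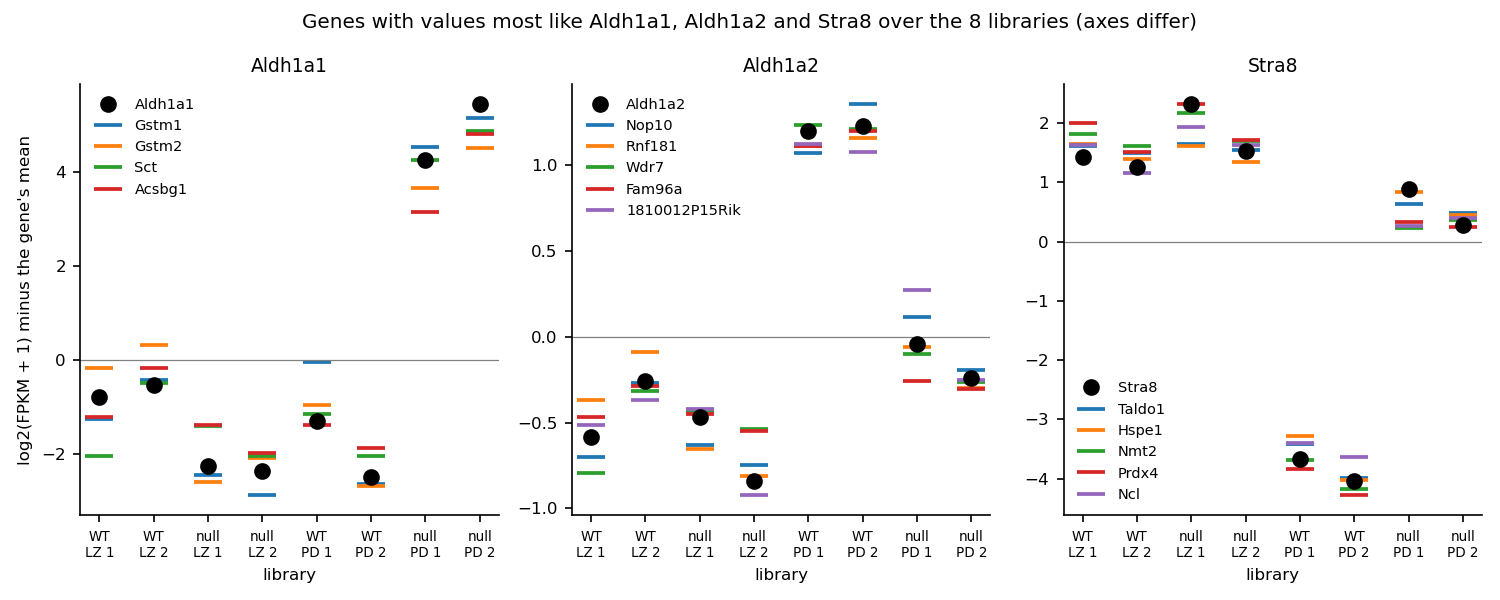
log2(FPKM + 1) minus each gene's own mean, in the 8 libraries, for Aldh1a1, Aldh1a2 and Stra8 (black points) and for genes most like each (coloured dashes); the scale differs between panels. The dashes lie closest to the points for Aldh1a2, whose 5 genes differ from it by 0.12 to 0.14.

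The 3′UTRs of the members were also searched for GACAGA, the sequence that the study gives for the RNA-binding domain of CNOT4. In the longest coding transcript of each gene (GENCODE vM1), Cyp26b1 held 3 matches in 2323 nt, Rara 3 in 1305 nt, Aldh1a2 1 in 649 nt and Rarb 1 in 1229 nt. The 3′UTRs of Aldh1a1, Aldh1a3, Cyp26a1, Rarg, Rdh10 and Stra8 held none. Of 18145 genes with a 3′UTR of at least 100 nt, 33.6% held at least 1 match. The members with a match include Cyp26b1 and Rara, which were called higher in Cnot4-null PD, and Aldh1a2, which was called lower. Of those without a match, Aldh1a1, Aldh1a3, Rdh10, Rarg and Stra8 were called higher. Rdh10 and Rarg had the opposite sign under quantile normalization. The paper reports no enrichment of this sequence among transcripts degraded in dependence on CNOT4. It does report that Aldh1a1 mRNA was precipitated with CNOT7 from WT testes but not from those of Cnot4-null males. Transcripts stabilized without CNOT4 were enriched from testis lysates by tagged CNOT4, but not by a form without that domain. From this the paper proposes that CNOT4 binds mRNA through the domain. Binding was not tested here.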

How the data were processed

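RNA-seq values of 8 libraries in 4 groups of 2 were analysed. Deposited values are FPKM, which the authors computed with Cufflinks 2.2.1 on UCSC gene models from trimmed reads, after mapping with TopHat2 2.1.1 to mm9 and keeping the uniquely mapped ones. The labels describe a TruSeq preparation from Trizol RNA and the methods Smart-Seq2 from small numbers of sorted cells, and which was used was not determined here. No scaling between libraries is described.

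The filter kept 15899 of 23235 genes (68.4%), those that passed 1 FPKM in some library. Limma 3.58.1 in R 4.3.3 fitted the 4 groups to log2(FPKM + 1), with a trend and 4 residual degrees of freedom, for 5 contrasts. Tests were two-sided, with Benjamini-Hochberg adjustment separately per contrast. A pseudocount of 1 understates the change of low genes. Exact permutation tests compared the differences between Aldh1a genes. The procedure was tested on simulated data. Other computations used Python 3.11.15 with pandas 2.3.3, numpy 2.4.6 and scipy 1.17.1, and figures matplotlib 3.10.9.

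The deposited files give no read counts. A relative number of fragments per FPKM came from the most frequent ratio between low FPKM values of WT LZ 1 and each other library. Promoters are RefSeq (GRCm38.p6), and positions and 3′UTRs GENCODE vM1 on NCBIM37. The genes named are the 10 members, up to 3 called genes in each direction with the largest log2 change at PD per pathway list, the 5 genes most like Aldh1a1, Aldh1a2 and Stra8, the most abundant and defining markers, and Cnot4. Some genes that this rule names are not reported here. Aldh1a7 at LZ, Ncor1, Kit, Sohlh2, Dhrs3, Id4, Nanos3, Ctsl and the genes named for entering the test through 1 group were named after their values were seen. Members and lists were chosen with earlier results of these data known. Alternatives were no filter, a mean FPKM of at least 5, a pseudocount of 0.1, quantile normalization, rescaling to the same median, no trend, only the libraries compared, a replicate block, and each library left out. Other marker lists were macrophages (4 of 8 tested called higher at PD in Cnot4-null), endothelium (1 of 2) and blood (1 of 2), near the 41.6% of all genes called higher, and leptotene and zygotene (2 of 8 higher, 4 lower). In the first 3 of these lists 2, 2 and 1 of the genes tested were above 1 FPKM in Cnot4-null PD alone, as were 2 of the 12 Sertoli markers tested. The macrophage median at PD was 2.41 beside 0.66 for all genes. Macrophage markers summed to 3.45 and 3.28 FPKM (WT PD), 32.8 and 138 (Cnot4-null PD), and 1.40 to 42.7 at LZ. Endothelial sums were 0.420 and 0.249 (WT PD) and 1.88 and 7.62 (Cnot4-null PD). Blood sums were 0.275 and 0.568 (WT PD), 1.63 and 8.63 (Cnot4-null PD), and 4.76 to 7.86 at LZ.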

Additional observations from a re-analysis of the deposited data

Results flagged for a closer look

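The genotype difference depended on stage for 7 of the 8 members tested, by a test of that dependence (limma, Benjamini-Hochberg over 15899 genes), beside 30.0% of all genes, 26.0% higher and 3.97% lower. The difference at PD minus that at LZ, in log2(FPKM + 1), was 8.40 for Aldh1a1, 5.33 for Cyp26b1 and 3.86 for Stra8, with adjusted p of 0.00103, 0.0031 and 0.00225, and for Aldh1a2 it was -1.13 (adjusted p = 0.0315), a call that was lost without any 1 of 5 libraries named above. After rescaling Aldh1a2 was at -2.58 and Stra8 at 2.46.

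For Rdh10 it was 1.29 (adjusted p = 0.0463), with the sign turned under quantile normalization, at -0.18, and it was not called without any 1 of the 8 libraries, at 1.01 to 1.56 (adjusted p from 0.0632 to 0.173, range over the alternatives 0.0378 to 0.785). For Rara it was 2.22 (adjusted p = 0.0475). It was not called without any 1 of the 6 libraries outside Cnot4-null PD, at 2.11 to 2.33 (adjusted p from 0.114 to 0.156, range over the alternatives 0.00242 to 0.334), and was 1.42 without Cnot4-null PD replicate 2. For Rarg it was 1.68 (adjusted p = 0.0462), not called without any 1 of the same 6 libraries, at 1.51 to 1.86 (adjusted p from 0.0784 to 0.163, range over the alternatives 0.00661 to 0.781). Quantile normalization gave 1.02 for Rara and 0.19 for Rarg, and rescaling to the same median 0.31 for Rdh10, 1.57 for Rara and 0.99 for Rarg, none of them called, while a pseudocount of 0.1 gave 3.91 for Rara and 2.69 for Rarg. With no filter the calls of Rdh10, Rara and Rarg were lost (adjusted p = 0.0642, 0.0738 and 0.0696), and with a replicate block those of Rdh10 and Rarg (0.064 and 0.0663).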

How the results depend on the processing

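For Cnot4-null PD against WT PD 8449 genes were called, 5219 with a mean FPKM of at least 5, and from 4057 (without WT PD replicate 2) to 9956 (without Cnot4-null PD replicate 1). Without WT PD replicate 1 there were 4341. For LZ, 15 were called, 4 with only the libraries compared, and from 9 (without WT PD replicate 1 or 2) to 25 (without WT LZ replicate 1). From LZ to PD, 9190 were called in WT (6930 to 10156 with 1 library left out) and 7316 in Cnot4-null, with 3955 for only the libraries compared and from 4644 (without Cnot4-null LZ replicate 1) to 8333 (without Cnot4-null PD replicate 2). Without Cnot4-null LZ replicate 2 there were 4828. For the dependence on stage 4770 were called, 7306 after rescaling, and from 1656 (without WT PD replicate 2) to 7929 (without Cnot4-null PD replicate 1). Without WT LZ replicate 1, WT LZ replicate 2, Cnot4-null LZ replicate 1, Cnot4-null LZ replicate 2 and WT PD replicate 1 there were 2569, 3151, 2710, 2299 and 1777. A lone library in a group is taken to vary like the other groups. The cause was not tested.

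Under quantile normalization the sign turned for Rdh10 at PD (-0.0284), Rarg at PD (-0.36) and the dependence of Rdh10 on stage (-0.18). Over 40 results of members, 260 of 320 values with 1 library left out kept direction and side of the threshold, 51 lost the call, 4 gained it and 5 that were not called changed sign. Of 297 values under other alternatives, 264 kept both, 25 lost the call, 2 gained it, and 3 called and 3 not called changed sign. With a replicate block 8298 genes were called at PD, 16 at LZ, 9085 and 7128 between stages in WT and Cnot4-null, and 4355 for the dependence on stage. Correlations between groups of the differences within replicate numbers were -0.0651 to 0.194, so the numbers do not show pairs.

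The exact tests of 2 against 2 libraries cannot give a p under 0.33. Genes below 1 FPKM, such as Cyp26a1 and Rarb, rest on few fragments.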
